A study of Mus musculus with 8 samples.

Results

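The 9 genes described here encode the enzymes that write DNA methylation (Dnmt1, Dnmt3a, Dnmt3b), their cofactor Dnmt3l, the hemimethyl-DNA binding proteins Uhrf1 and Uhrf2, and the erasers Tet1, Tet2 and Tet3. They were chosen by name, 9 of the 22180 genes with a value, and the rule takes for each the probe set of highest mean among those annotated to that symbol alone. All 9 had exactly 1 such probe set and none that was shared with another symbol, so no choice had to be made. Expression was measured in 8 mouse tumours, with 1 array per tumour, and all 8 form 1 group (n = 8). The starting cells were neural crest cells (NCCs) transduced with N-Myc, a mixture of p53+/- and p53-/- cells called N-Myc; p53mixed, so that loss of at least 1 p53 allele was common to all. About 10000 cells were placed under the skin 48 hours after infection, in nude or in C57Bl/6 mice, and primary tumours were taken out at about 50 days. The labels do not say which host or which p53 genotype a tumour had, do not state that tumours came from separate animals or cultures, and give no promoter for N-Myc. No normal crest cells or other tissue were analysed here, so each level can be set only against the array background and against the other tumours. The p-values below therefore cover the spread between these samples, which may in part be technical.

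In mammalian cells a methyl group is placed on cytosine, mostly where a guanine follows. Dnmt1 copies the mark onto the new strand after replication, recruited by Uhrf1, whereas Dnmt3a and Dnmt3b place it on unmethylated sites and Dnmt3l, which has no catalytic activity, helps them in germ cells and embryonic stem cells. The Tet enzymes oxidise methylcytosine with 2-oxoglutarate and iron, and the oxidised base is lost through replication or base excision repair. Because every division needs the mark copied, Dnmt1 and Uhrf1 are known as genes of cycling cells, while Dnmt3a and the Tet genes also have known roles in neurons.

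The promoter windows of the members differed in content of CpG, the dinucleotide that these enzymes act on. RefSeq start sites on GRCm38.p6 gave 16 windows of 300 bases for the 9 genes, each from 250 bases before to 50 bases after a start. Over all 32851 windows of this kind the median was 7 CpG. The 3 Dnmt3l windows held 6, 4 and 3, and the single Tet2 window held 57, a number reached by 0.152% of all windows. Each of the other 7 genes had a window with at least 17 CpG, although another Dnmt1 window held only 2, the fewest of the 16. The following 4 sequences are the 250 bases before the start: those of Dnmt1 and Uhrf1 because they hold a motif for E2F factors, which drive genes of S phase, the Dnmt3l window with the fewest CpG (3, a number reached by 76.7% of all windows) and that of Tet2 as the one with the most. The capitals mark E2F motifs, searched on both strands as TTTCCCGC, TTTCGCGC, TTTGCCGC or TTTGGCGC, which can overlap one another.
Dnmt1, chr9:20952624-20952873, minus strand: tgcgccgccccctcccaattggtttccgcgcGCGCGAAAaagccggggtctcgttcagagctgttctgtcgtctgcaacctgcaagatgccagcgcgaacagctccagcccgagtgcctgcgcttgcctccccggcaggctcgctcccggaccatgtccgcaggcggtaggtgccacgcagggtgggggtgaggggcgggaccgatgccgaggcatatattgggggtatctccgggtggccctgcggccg
Uhrf1, chr17:56304063-56304312, plus strand: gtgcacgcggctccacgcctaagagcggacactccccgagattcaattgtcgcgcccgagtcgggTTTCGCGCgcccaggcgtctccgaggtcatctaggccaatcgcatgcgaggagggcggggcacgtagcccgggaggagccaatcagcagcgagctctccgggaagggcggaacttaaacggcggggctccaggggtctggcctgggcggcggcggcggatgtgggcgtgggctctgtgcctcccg
Dnmt3l, chr10:78055085-78055334, plus strand: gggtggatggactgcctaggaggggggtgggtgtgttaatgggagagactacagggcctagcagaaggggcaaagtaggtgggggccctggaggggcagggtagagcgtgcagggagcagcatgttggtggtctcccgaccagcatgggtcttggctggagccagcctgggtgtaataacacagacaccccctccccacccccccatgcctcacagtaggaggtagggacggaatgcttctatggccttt
Tet2, chr3:133544391-133544640, minus strand: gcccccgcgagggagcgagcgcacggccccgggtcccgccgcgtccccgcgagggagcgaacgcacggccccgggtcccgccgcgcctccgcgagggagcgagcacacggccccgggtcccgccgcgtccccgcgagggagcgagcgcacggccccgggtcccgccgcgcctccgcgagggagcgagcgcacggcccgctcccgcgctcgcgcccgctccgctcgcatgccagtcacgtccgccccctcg

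An E2F motif was present in 2.27% of all windows and in 1 window each of Dnmt1 and Uhrf1, the pair that carries out maintenance methylation, and in no window of the other 7 genes. The Dnmt1 window held a further match in its last 50 bases. The E-box CACGTG, the motif of Myc proteins, which is its own reverse complement, was present in 7.15% of all windows and in 1 window each of Dnmt3a and Dnmt3l. These are matches of letters in a window and no measure of binding.

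On the arrays, 8 of the 9 genes were above background in every tumour and Dnmt3l was below it in every tumour. Background was defined on each array as the 95th percentile of 1440 probe sets for olfactory, vomeronasal and bitter taste receptor genes, and lay between 5.45 and 5.66 on the log2 scale. A gene was called detected when its mean over the tumours exceeded background with a Benjamini-Hochberg adjusted p under 0.05 in limma, a linear model with moderated variance fitted over all genes. By this rule 57.3% of all genes were detected. All levels below are log2 RMA values, on which a difference of 1 is a factor of 2, and levels of different genes are not set against each other because their probes differ. Depth has no meaning on arrays, and the number of arrays limits the precision.

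**Figure D1:**
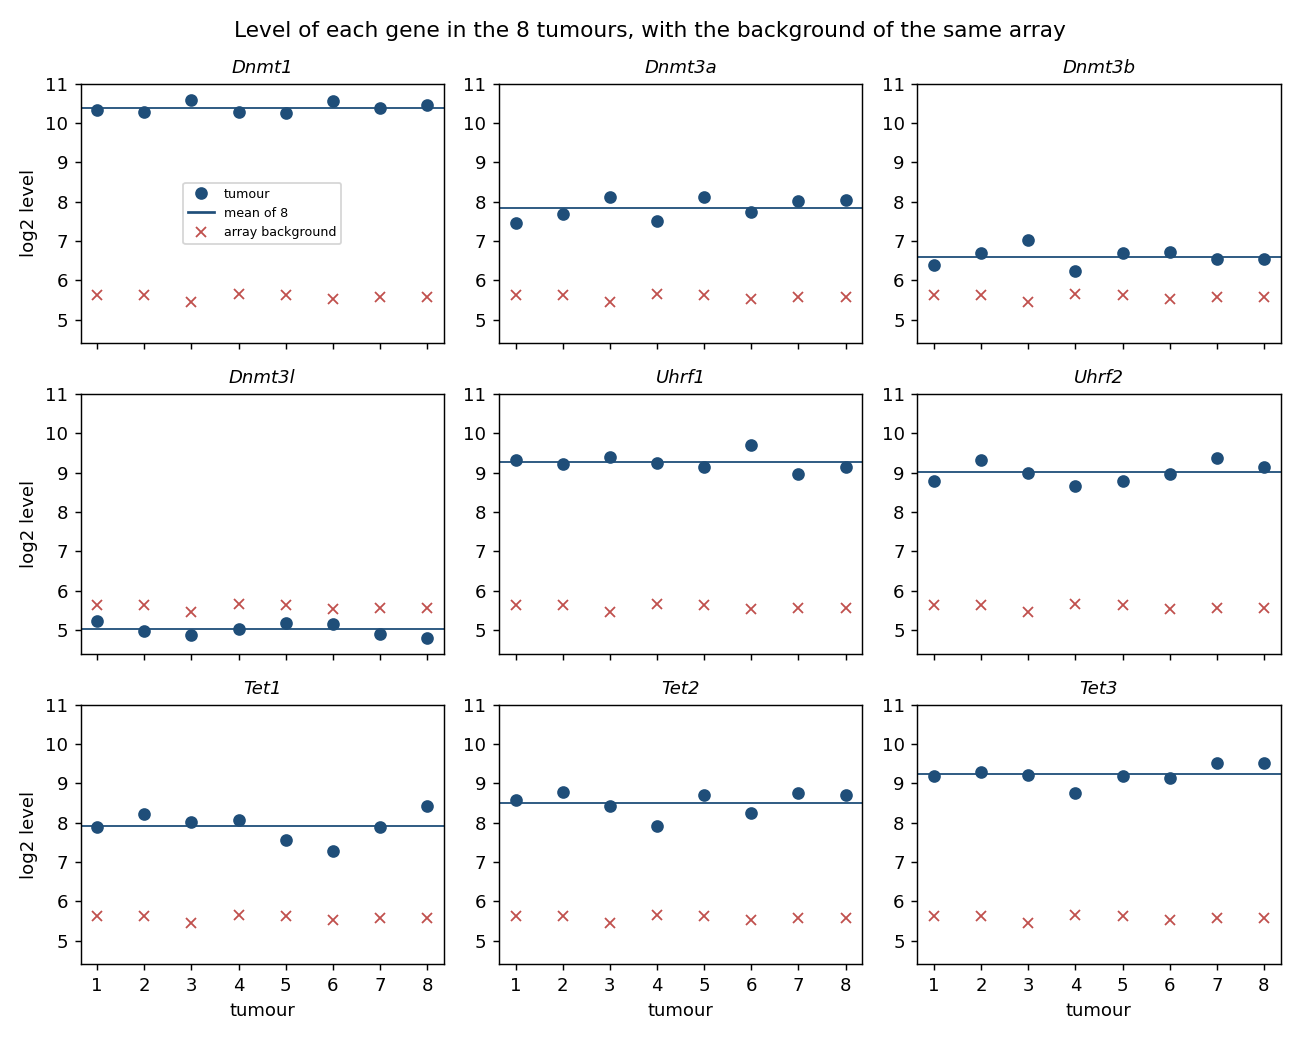
Log2 level of each of the 9 genes (vertical axis, same scale in all panels) in tumours 1 to 8 (horizontal axis). Points are tumours, the line is the mean of 8 and crosses are the background of the same array; every point lies above its cross in 8 panels and below it in the Dnmt3l panel.

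Dnmt1, the maintenance methyltransferase, was the steadiest of the 9 genes. Its level was lowest at 10.25 in tumour 5, had a median of 10.35 and was highest at 10.58 in tumour 3, a span of 1.26-fold. The mean was 10.39 ± 0.13 (SD, n = 8), which is 4.80 above background (SE 0.07, limma, adjusted p = 1.39e-14). Of all detected genes, 90.3% had an SD at least as large. Tumours 3 and 6 (10.58 and 10.55) stood at the top, and tumours 5, 2 and 4 (10.25, 10.27 and 10.29) lay close together at the bottom.

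Uhrf1, which binds hemimethylated DNA and brings Dnmt1 to it, ran from 8.97 in tumour 7 through a median of 9.23 to 9.72 in tumour 6. Its mean was 9.27 ± 0.22 (SD, n = 8), 3.69 above background (SE 0.09, limma, adjusted p = 6.56e-13). Tumour 6 stood 0.32 above the next tumour, tumour 3 at 9.40, and the other 5 tumours between these and tumour 7 lay from 9.14 to 9.32. Uhrf2, its paralogue, which does not replace Uhrf1 in maintenance, ran from 8.67 in tumour 4 through a median of 8.99 to 9.39 in tumour 7. Its mean was 9.01 ± 0.26 (SD, n = 8), 3.43 above background (SE 0.10, limma, adjusted p = 2.63e-12). The extremes of the paralogues differed: tumour 7 was the lowest for Uhrf1 and the highest for Uhrf2.

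Of the de novo enzymes, Dnmt3a, which also acts in differentiated cells, was at 8.11, 8.11, 8.03 and 8.01 in tumours 3, 5, 8 and 7. It was at 7.75, 7.68, 7.50 and 7.46 in tumours 6, 2, 4 and 1, and the widest gap between neighbours, between tumours 7 and 6, was 0.27. The mean was 7.83 ± 0.27 (SD, n = 8), 2.25 above background (SE 0.10, limma, adjusted p = 4.09e-10). Dnmt3b, which acts mainly in the early embryo, ran from 6.23 in tumour 4 through a median of 6.62 to 7.02 in tumour 3. Its mean was 6.60 ± 0.24 (SD, n = 8), which is 1.01 above background (SE 0.10, limma, adjusted p = 7.27e-07) and the smallest margin among the 8 detected genes. With background set at the 99th percentile of the receptor probe sets the margin was 0.0089 and the call was lost (limma, adjusted p = 0.94). Dnmt3l ran from 4.79 in tumour 8 through a median of 4.99 to 5.24 in tumour 1, with a mean of 5.02 ± 0.16 (SD, n = 8). It was 0 of 8 times above the background of its array, so the order of the tumours for this gene is an order below background. The side on which it fell was set by the background level: the margin was -0.57 as defined here, 0.05 at the 90th percentile of the receptor probe sets (limma, adjusted p = 0.453) and 1.55 at their median (limma, adjusted p = 5.71e-11).

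The Tet genes were all detected, and Tet1 had the largest SD of the 9 genes. Tet1, the form best known from stem cells and primordial germ cells, was at 7.28 in tumour 6 and 7.55 in tumour 5, between 7.89 and 8.21 in tumours 1, 7, 3, 4 and 2, and at 8.42 in tumour 8. The highest and lowest tumours differed 2.21-fold. Its mean was 7.92 ± 0.36 (SD, n = 8), 2.33 above background (SE 0.12, limma, adjusted p = 7.68e-10).

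Tet2, a gene best known from blood cells, where it is often mutated in leukaemia, was at 7.92 in tumour 4 and 8.25 in tumour 6, and between 8.41 and 8.77 in the other 6 tumours. Its mean was 8.51 ± 0.30 (SD, n = 8), 2.93 above background (SE 0.10, limma, adjusted p = 2.29e-11). Tet3, the form of the oocyte and of neurons, was likewise lowest in tumour 4, at 8.76. It lay between 9.13 and 9.29 in tumours 6, 1, 5, 3 and 2 and at 9.51 and 9.52 in tumours 7 and 8. Its mean was 9.23 ± 0.24 (SD, n = 8), 3.64 above background (SE 0.09, limma, adjusted p = 1.01e-12). With 1 array per tumour, the difference between any pair of neighbouring tumours could not be tested for any gene.

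The spread of the 9 genes between tumours was ordinary for these arrays. None had an SD above 0.41, the 99th percentile of the receptor probe sets, a level passed by 14.6% of detected genes. Against the 95th percentile, 0.30, 1 of the 9 passed (Tet1), beside 28.7% of detected genes. The median SD was 0.24 for the 9 genes, 0.23 for all detected genes and 0.16 for the receptor probe sets.

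**Figure D2:**
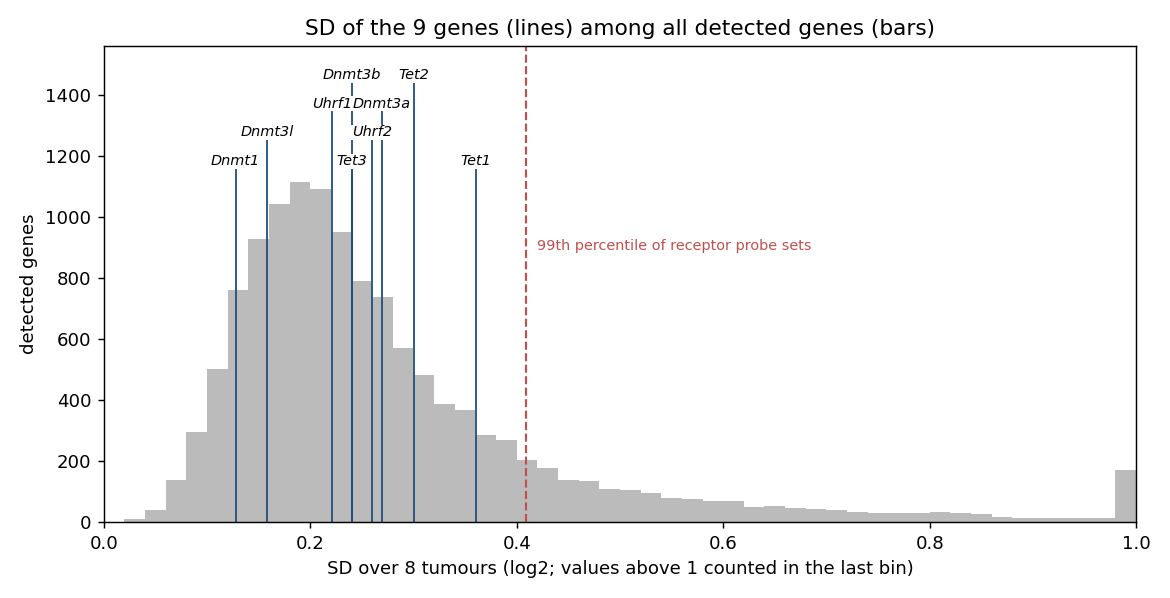
Number of detected genes (vertical axis) by their SD of log2 levels over the 8 tumours (horizontal axis), with a line for each of the 9 genes. All 9 lines lie left of the dashed line at 0.41, the 99th percentile of the receptor probe sets, with Dnmt1 (0.13) farthest left and Tet1 (0.36) farthest right.

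By tumour, 4 of the 8 detected members had their lowest level in tumour 4, namely Dnmt3b, Uhrf2, Tet2 and Tet3, while 13.0% of all detected genes were lowest there. Over the tumours, tumour 4 included, Tet3 had Pearson r = 0.87 with Tet2 and 0.80 with Uhrf2. Neither passed over all 36 pairs of members (exact permutation, adjusted p = 0.105 and 0.213). Tet2, Tet3 and Uhrf2 should still not be counted as separate observations. Dnmt3b had r = 0.30 with Tet2, 0.34 with Tet3 and 0.32 with Uhrf2. The median deviation of the 8 members from their own means was -0.34 in tumour 4 and between -0.08 and 0.17 in the other tumours. Over all detected genes this median was 0.01 in tumour 4. Dnmt3a was also low in tumour 4 (-0.33 from its mean), whereas Tet1 was 0.14 above its mean there. In tumour 3, the 3 methyltransferases Dnmt1, Dnmt3a and Dnmt3b had their highest levels, beside 13.7% of all detected genes. For Dnmt3a and Dnmt1, the margin over the next tumour was only 0.0066 and 0.03. Tumours 4 and 3 were singled out after the values were seen, because they held the most lowest and the most highest members.

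Several cell type lists had extremes in these tumours. As the mean of centred levels, the 10 measured crest progenitor and glia genes were highest in tumour 4 (1.45). Tumour 6 was next (0.79), and the others lay between -0.73 and -0.05. In tumour 6 the median deviation of the 8 detected members was -0.06, and single members ran from -0.64 (Tet1) to 0.45 (Uhrf1). The 11 endothelial genes were also highest in tumour 4 (0.64, and -0.53 to 0.29 elsewhere), and the 14 mitosis genes lowest (-0.20, and -0.10 to 0.14 elsewhere). Tumour 3 had the highest mean of the 14 macrophage genes (0.61) and of the 12 fibroblast and pericyte genes (0.58). The part of these cells in the levels of the 9 genes was not tested, and in whole tumours fewer cells of a type and less RNA per cell cannot be told apart.

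**Figure D3:**
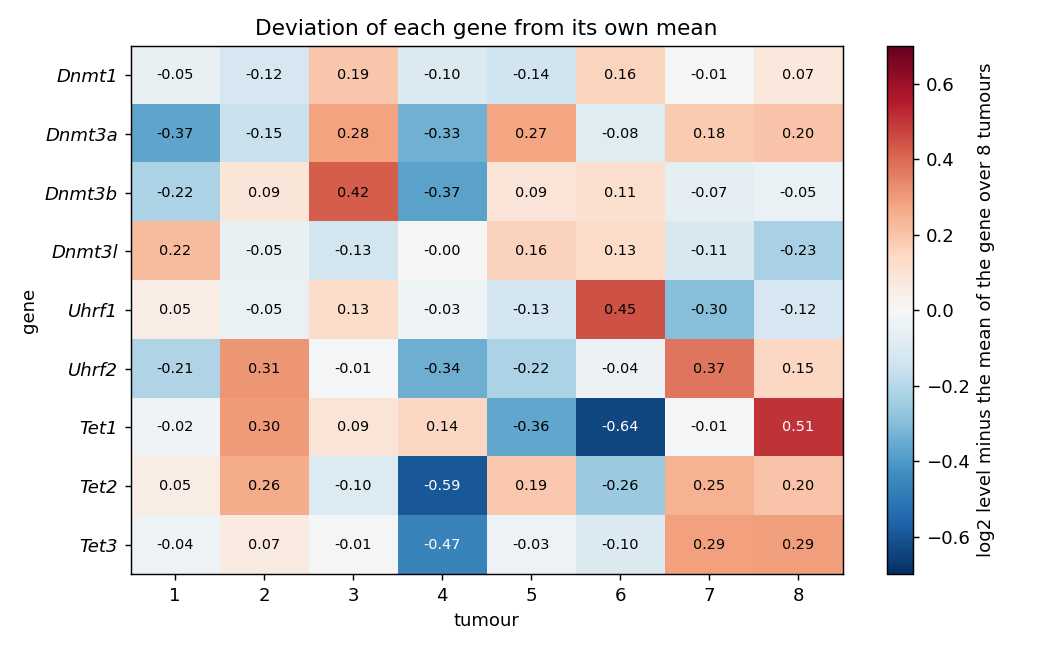
Log2 level of each gene (rows) in each tumour (columns) minus the mean of that gene over the 8 tumours, as colour and as number. Tumour 4 is blue for Dnmt3a, Dnmt3b, Uhrf2, Tet2 and Tet3, and tumour 6 holds the lowest value of Tet1 (-0.64) and the highest of Uhrf1 (0.45).

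Relations over the tumours were computed for 19 pairs, in which a member was set against another member or against the mean of a gene list. None passed after adjustment (exact permutation over all pairings of the tumours, two-sided, Benjamini-Hochberg over the 19), and 3 had an unadjusted p under 0.05. Tet2 and Tet3 had the lowest p of the 19 (Pearson r = 0.87, exact permutation p = 0.00293, adjusted p = 0.0556; Spearman rho = 0.83, p = 0.0154, adjusted p = 0.219; n = 8). Without tumours 4 and 6, the farthest from the median of Tet2, r was 0.54 (exact permutation p = 0.233, n = 6). Tumour 4 was lowest for both genes: r was 0.66 without it alone, the lowest of the 8 such values, and 0.88 without tumour 6 alone.

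Uhrf1 was set against 23 measured S phase genes, such as those of the Mcm helicase, to ask whether it followed replicating cells. The list mean was 0.18 in tumour 6 and 0.14 in tumour 3, where Uhrf1 was highest, and -0.25 in tumour 7, where it was lowest (r = 0.86, exact permutation p = 0.00878, adjusted p = 0.0834; rho = 0.74, p = 0.0458, adjusted p = 0.219; n = 8). Without tumours 6 and 7, r was 0.67 (exact permutation p = 0.142, n = 6), and without each of them alone it was 0.86 and 0.81. Without tumour 5, both it (r = 0.92) and that of Tet2 with Tet3 (r = 0.92) passed (exact permutation, adjusted p = 0.0396 for both). For Dnmt1 and the same list r was 0.43 (exact permutation p = 0.296, adjusted p = 0.527; rho = 0.24, p = 0.582, adjusted p = 0.691; n = 8), and it turned to -0.54 without tumours 3 and 6 (exact permutation p = 0.278, n = 6). This r also varied with array scaling. It was 0.62 with arrays centred, 0.16 with arrays quantile normalized again and 0.71 on levels minus array background, and none of these passed after adjustment. Dnmt1 and Uhrf1 themselves had r = 0.58 (exact permutation p = 0.125, adjusted p = 0.348, n = 8). Their rho was 0.52 (exact permutation p = 0.197, adjusted p = 0.374, n = 8). Without tumours 3 and 6, r was -0.30 (exact permutation p = 0.547, n = 6). These were the 2 highest tumours for Dnmt1, so leaving both out also narrowed its range. Without tumour 3 alone r was 0.57, and without tumour 6 alone it was 0.35.

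Tet1 was set against the mean of 15 neuronal genes over all 8 tumours (r = 0.76, exact permutation p = 0.0295, adjusted p = 0.187; rho = 0.57, p = 0.151, adjusted p = 0.374; n = 8), but r was 0.05 without tumours 6 and 8 (exact permutation p = 0.933, n = 6). With each tumour left out in turn, r for this relation ran from 0.45 to 0.85. In tumour 6, the lowest for Tet1, the neuronal mean was -0.47 and the mean of 11 sympathetic neuroblast genes was -2.24. Dnmt3a with Dnmt3b had r = 0.68 (exact permutation p = 0.0629, adjusted p = 0.299; rho = 0.71, p = 0.0576, adjusted p = 0.219; n = 8) and r = 0.18 without tumours 1 and 4 (exact permutation p = 0.786, n = 6). Tet2 and the macrophage list had r = -0.51 (exact permutation p = 0.202, adjusted p = 0.427; rho = -0.55, p = 0.171, adjusted p = 0.374; n = 8) and r = -0.56 without tumours 4 and 6 (exact permutation p = 0.235, n = 6). Tet3 and the neuronal list had r = 0.60 (exact permutation p = 0.132, adjusted p = 0.348; rho = 0.74, p = 0.0458, adjusted p = 0.219; n = 8) and r = 0.72 without tumours 4 and 8 (exact permutation p = 0.16, n = 6). Dnmt3b and the crest progenitor and glia list had r = -0.42 (exact permutation p = 0.305, adjusted p = 0.527; rho = -0.14, p = 0.752, adjusted p = 0.841; n = 8), which turned to 0.65 without tumours 3 and 4 (exact permutation p = 0.156, n = 6). The other 10 relations had r between -0.34 and 0.59, with adjusted exact permutation p of 0.348 or above.

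**Figure D4:**
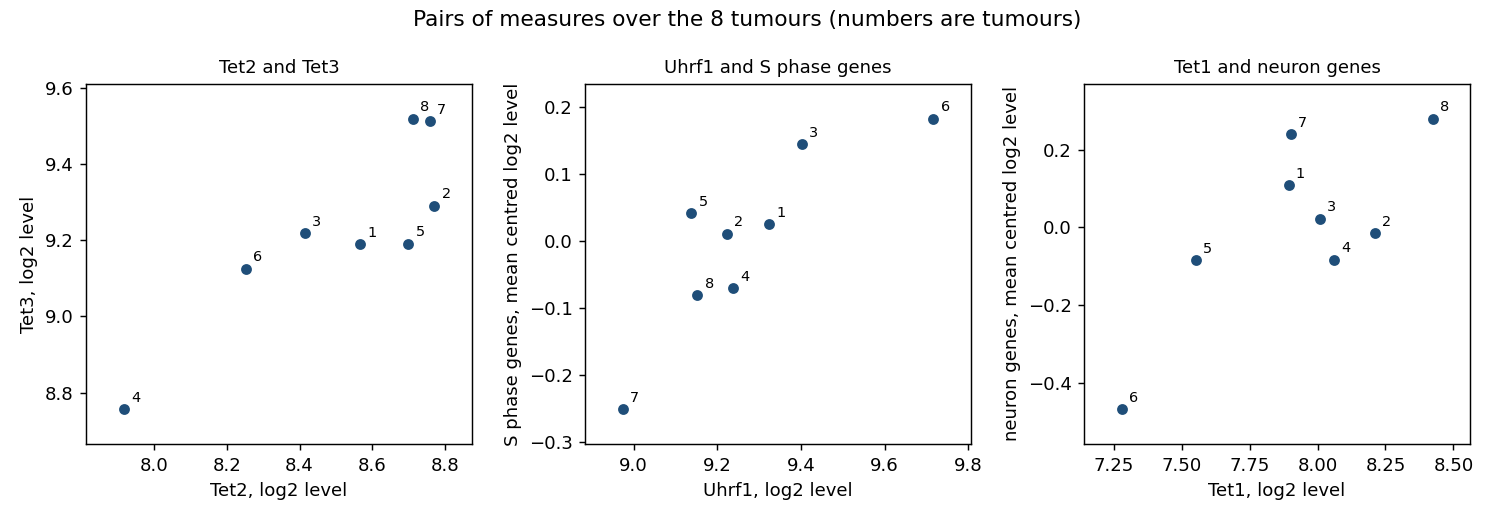
Each point is 1 of the 8 tumours, with its number: Tet2 against Tet3 (log2 levels), Uhrf1 against the mean centred level of 23 S phase genes, and Tet1 against that of 15 neuronal genes. Tumour 4 is lowest for both Tet2 and Tet3, tumours 6 and 7 are the extremes of Uhrf1, and tumour 6 is lowest for Tet1 and for the neuronal genes.

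Likeness over only 8 tumours is common among genes. By Pearson's r with Tet3 over the 8 tumours, Tet2 ranked 104 and Uhrf2 (r = 0.80) ranked 276 of 12714 other detected genes. The genes most like Tet3 were Soga1 (r = 0.97), Gm9442 (0.96) and Chmp7 (0.96), and the least like it was Atp5b (-0.97). For Tet1 they were Pgrmc1 (0.97), Fam20b (0.97) and Pcdhb10 (0.96), and Nmd3 was the least like it (-0.98). These 2 members were chosen after their values were seen, because no member passed the spread that the naming rule required.

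The rest of the methylation machinery was detected nearly in full. All 7 measured readers of methylated CpG were detected, as were 7 of 8 maintenance partners, 14 of 14 chromatin factors that steer methylation to or away from sites, 13 of 13 Tet partners and base excision genes and 11 of 11 genes of methyl donor and 2-oxoglutarate supply. The exception was Dppa3, an oocyte and germ cell protein that keeps Uhrf1 off chromatin, at 4.46 ± 0.15 (SD, n = 8) and above background on 0 of 8 arrays. Median SDs of these 5 lists ran from 0.16 to 0.23, against 0.23 for all detected genes and 0.20 for all genes. In each list the detected gene with the largest SD was named: Zbtb38, a methyl-CpG binding zinc finger protein, was at 6.69 in tumour 6 and 8.03 to 8.62 elsewhere. Cdca7, which works with the remodeller Hells in maintenance, ran from 7.78 in tumour 8 to 9.19 in tumour 6. Kmt2a, a histone methyltransferase whose CXXC domain binds unmethylated CpG, ran from 9.003 in tumour 4 to 9.87 in tumour 7. Neil3, a base excision glycosylase, ran from 7.19 in tumour 6 to 8.40 in tumour 2, and Idh3a, a subunit of the enzyme that makes 2-oxoglutarate in mitochondria, from 8.99 in tumour 1 to 9.96 in tumour 6.

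Germline genes that promoter methylation is known to hold silent in somatic cells were mostly below background. Of 25 measured, 1 was detected, Syce2 (8.80 ± 0.22, SD, n = 8; limma, adjusted p = 1.13e-12), which encodes a protein of the synaptonemal complex, against 57.3% of all genes. Dazl and Ddx4, RNA-binding proteins of germ cells, were at 4.08 ± 0.16 and 3.71 ± 0.11 (SD, n = 8). Tdrd1, a germ cell protein of the piRNA pathway, exceeded the background of 3 arrays, with levels of 6.69 (tumour 2), 6.00 (tumour 4) and 5.81 (tumour 5), and was below it on the other 5 (limma over all 8, adjusted p = 0.32). Tex19.1 was above background on 5 of 8 arrays (limma, adjusted p = 0.96), Piwil1 on 4 (limma, adjusted p = 0.414) and Piwil2 on 1, at 6.37 in tumour 4. The remaining 20 genes of the list that were not detected were above it on 0 of 8 arrays. These 4 genes were singled out after their values were seen. Among 12 pluripotency genes 2 were detected, Pou5f1 and Lin28a, at 5.98 ± 0.14 and 6.00 ± 0.26 (SD, n = 8), which is 0.40 and 0.41 above background, and both calls were lost at the 99th percentile background, where 0 of 12 were detected.

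**Figure D5:**
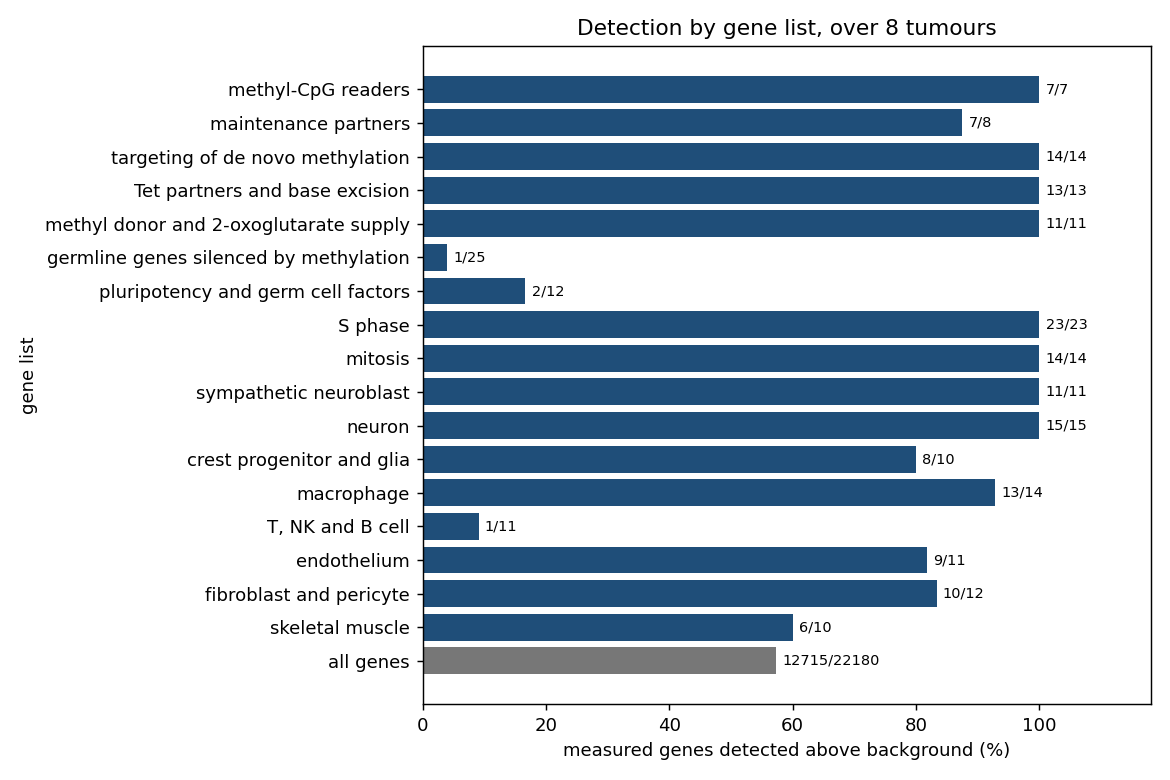
Percent of measured genes detected above background (horizontal axis) for each gene list and, in grey, for all genes, with counts as detected over measured. The 5 lists of the methylation machinery stand between 87.5 and 100%, the germline list at 4% and all genes at 57.3%.

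Markers of the labelled tissue were present over the 8 tumours, but not all of them in tumour 6. By the test over all tumours, all 11 measured sympathetic neuroblast genes and 15 of 15 neuronal genes were detected, among them tyrosine hydroxylase (Th) at 10.05 ± 0.91 (SD, n = 8). In tumour 6, 3 of the 11 sympathetic genes were below the background of that array (5.54): Tfap2b (4.88), Gata2 (5.45) and Slc18a1 (5.14). Macrophage genes (13 of 14), fibroblast and pericyte genes (10 of 12), endothelial genes (9 of 11) and skeletal muscle genes (6 of 10) were detected as well, and 1 of 11 lymphocyte genes. Array medians over all probe sets lay between 5.63 and 5.75.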

How the data were processed

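Total RNA of 8 tumours was labelled with biotin and hybridised to Affymetrix arrays, 1 per tumour. The deposited values are log2 levels per probe set, which the authors made with RMA and Partek 6.5, per the submitters' processing notes. These notes do not say which tool did which step. The scale is not labelled and was taken as log2 because values run from 2.07 to 13.61. The sources used here give no annotation or further options. RMA draws the arrays towards 1 common distribution, so a change shared by all genes of a tumour would not be fully seen. Small differences between arrays remained, with medians over the genes from 6.17 in tumour 1 to 6.34 in tumour 4. Of 41345 probe sets, 25335 are named by the platform annotation: 23521 have 1 gene symbol, 1814 have several and were not used for any gene, and 16010 are unnamed here. A gene with several probe sets was read from that with the highest mean, which gave 22180 genes.

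Detection used limma 3.58.1 in R 4.3.3 with trend and robust prior, tested on simulated data. Relations used exact permutation in Python 3.11.15 with numpy 2.4.6. Promoters come from RefSeq, GRCm38.p6, and all 9 members matched by symbol. The alternatives were other background levels, limma without trend, arrays centred or quantile normalized again, the mean of all probe sets, list means over detected genes and each tumour left out. The members and the 17 lists of 242 further genes, of which 221 had a value, were chosen with earlier results of these data known. The genes named are the members and 1 detected gene of largest SD per machinery list. The rule also named the 3 most alike genes and the least alike for members of wide SD. No member had one, so Tet1 and Tet3, like all others named, were chosen after their values were seen.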

Additional observations from a re-analysis of the deposited data

Results flagged for a closer look

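The mean of the 11 sympathetic neuroblast genes in tumour 6, quoted beside Tet1, was -2.24, while the other 7 tumours ran from -0.23 to 0.86. The gap to the nearest tumour was 65% of the whole range, more than the limit set for 8 samples. Chance gives a gap beyond that limit in about 1 of 20 groups, and 26 measures were examined (the 9 genes and 17 list means). None of the 9 genes had a tumour this far from the others; Tet3 came closest, with tumour 4 at 8.76.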

How the results depend on the processing

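The count of 8 detected genes held under 13 of 15 alternatives. It was 7 at the 99th percentile background, without Dnmt3b, and 9 at the median, with Dnmt3l, whose margin turned positive there (1.55) and at the 90th percentile (0.0457). No member had a wide SD under any alternative but the 95th percentile, where 1 did. The count of relations past the threshold was 0, but 1 with arrays quantile normalized again (Tet2 with Tet3, exact permutation, adjusted p = 0.0254) and 0 to 2 when a tumour was left out, the 2 being those without tumour 5. It was 0 over all 36 pairs of members, where 3 had an unadjusted exact permutation p under 0.05, and 0 on levels minus array background, both chosen after seeing the data. Signs turned for 3 relations when a tumour was left out: r ran from -0.0249 to 0.60 for Tet1 with Tet2 (negative without tumour 6), from -0.67 to 0.16 for Dnmt3b with crest and glia genes (positive without tumour 4) and from -0.57 to 0.13 for Tet1 with these genes (positive without tumour 6, 0.134). The mean of all probe sets gave the members the same values, since each has 1. Counts for the germline, pluripotency, lymphocyte, crest, endothelial and muscle lists moved by over 1.5 times at other background levels; for the germline list they were 3 at the 90th percentile and 20 at the median. No paired analysis was possible because the tumours form 1 group. Signal near background limits Dnmt3b and Dnmt3l most.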
